A study of Mus musculus with 19 samples.

Results

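A set of 7 genes, *Moxd1*, *Susd4*, *Nxpe2*, *Serpine2*, *Fitm1*, *Hsd3b5* and *Elovl3*, was followed across the liver libraries of a thioacetamide (TAA) fibrosis experiment, out of 31053 genes in the deposited count table. The genes were selected on their measured values as genes well expressed in livers of vehicle-treated mice and low after TAA, and the question was which of them recovered with miR-34b/c. The selection used the vehicle and TAA libraries themselves and set no numerical threshold, so differences from vehicle are given below as a description without a test. For 6 of the 7 genes the libraries had this pattern, whereas *Elovl3* was not lower after TAA in these counts. Its values and its tests between the TAA groups are given all the same, but not as recovery.

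The libraries came from whole livers of male C57BL/6 mice (strain C57BL6J in the sample records). The mice are stated to be 6 to 8 weeks old, which cannot be the age of TAA mice at death, given the schedule below. Control mice received vehicle (phosphate-buffered saline, PBS; 5 libraries). The other mice were given increasing doses of TAA, a hepatotoxin activated in hepatocytes, for 12 weeks, were injected after 10 weeks with adeno-associated vectors of serotype 8 carrying either green fluorescent protein (AAV-GFP, 7 libraries) or miR-34b plus miR-34c as a combination of vectors (AAV-miR-34b/c, 7 libraries), and were killed 4 weeks after the injection. Both vectors used the thyroxine-binding globulin (TBG) promoter, which is active in hepatocytes. The records name no vector for vehicle-treated mice, so TAA and vector injection cannot be told apart in comparisons with vehicle. The TAA groups differ from each other in the vectors they received.

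Adult male mouse liver expresses a set of genes at higher levels than female liver, under the control of pulsatile growth hormone secretion acting through the transcription factor STAT5B. *Hsd3b5* and *Elovl3* are textbook examples of this male-biased set, and transcription of *Elovl3* also follows the circadian clock. microRNAs such as miR-34b and miR-34c pair through their seed, bases 2 to 8, with sites in 3′ untranslated regions (UTRs) and lower the level or translation of the target. The mature mouse miR-34b-5p, on chromosome 9 from 51103610 to 51103632 on the minus strand (RefSeq, GRCm38.p6), is shown because it was delivered to the mice, with the seed in capitals.
mmu-miR-34b-5p: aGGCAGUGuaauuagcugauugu
The reverse complement of this seed, in DNA letters, is CACTGCC. It was found in the longest annotated 3′ UTR of 0 of the 7 genes (UTRs of 27 to 1385 bases, GENCODE annotation of GRCm38), and in 14.3% of 21020 genes with an annotated 3′ UTR. This says only that these letters are not in those sequences.

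Of the 7 genes, 6 had a promoter window in RefSeq (250 bases before to 50 bases after the transcription start, GRCm38.p6), and *Susd4* had 2. The windows of *Moxd1*, *Susd4* and *Nxpe2*, chosen because their levels were on the higher side with miR-34b/c, are shown with matches to the searched motifs in capitals. The motifs, searched on both strands, were TTCNNNGAA (STAT5), CACGTG (E-box) and TTATGNAA (D-box), which were found in 8.30%, 7.15% and 3.38% of 32851 promoter windows.
Moxd1, chr10:24223267-24223566, plus strand: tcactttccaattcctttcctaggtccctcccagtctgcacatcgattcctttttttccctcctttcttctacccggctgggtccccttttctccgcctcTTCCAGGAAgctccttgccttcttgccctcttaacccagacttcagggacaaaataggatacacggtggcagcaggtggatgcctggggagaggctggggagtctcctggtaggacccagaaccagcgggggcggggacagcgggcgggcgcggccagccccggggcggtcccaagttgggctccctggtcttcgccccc
Susd4, chr1:182763966-182764265, plus strand: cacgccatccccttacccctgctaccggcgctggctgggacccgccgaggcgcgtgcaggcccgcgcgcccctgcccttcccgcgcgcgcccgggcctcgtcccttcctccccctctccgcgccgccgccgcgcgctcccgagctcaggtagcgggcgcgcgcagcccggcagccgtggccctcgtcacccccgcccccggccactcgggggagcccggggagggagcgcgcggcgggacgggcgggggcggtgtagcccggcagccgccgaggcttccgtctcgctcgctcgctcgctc
Nxpe2, chr9:48340849-48341148, minus strand: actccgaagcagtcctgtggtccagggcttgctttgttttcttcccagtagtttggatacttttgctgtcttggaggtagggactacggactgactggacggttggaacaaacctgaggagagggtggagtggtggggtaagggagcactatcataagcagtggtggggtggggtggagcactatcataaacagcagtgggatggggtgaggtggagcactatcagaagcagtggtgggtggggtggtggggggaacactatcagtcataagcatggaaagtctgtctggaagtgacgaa
The single match in the windows of these genes was TTCCAGGAA before the start of *Moxd1*, with its first base at position -150. The windows of *Serpine2*, *Fitm1* and *Hsd3b5* and the other window of *Susd4* held none of the 3 motifs. RefSeq places the start of *Hsd3b5* upstream of the GENCODE gene and those of *Nxpe2*, *Serpine2*, *Susd4* and *Fitm1* inside theirs. The printed *Nxpe2* window thus does not cover the GENCODE start of that gene at 48353454. A match of letters is not a measured binding site.

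Total counts on genes were 2214073 to 4145454 in vehicle, 2463842 to 4383805 in AAV-GFP and 2717503 to 5208405 in AAV-miR-34b/c libraries. At this depth a count of 3 in an AAV-GFP library corresponded to 0.917 CPM (the count divided by the normalized library size and scaled up) on average, and this was taken as the floor of the measurement. Within groups, 6 pairs of libraries were closer to each other than all other pairs (coefficient of variation beyond counting noise 0.0812 to 0.171, against 0.215 to 0.480 in the other 46 pairs). These were vehicle libraries 1 and 4 and 3 and 5, AAV-GFP libraries 1 and 2, and AAV-miR-34b/c libraries 1 and 2, 3 and 4, and 5 and 7. They were analysed as separate mice and, as an alternative, summed, which leaves 3, 6 and 4 samples. Levels are given as CPM scaled to TMM-normalized library sizes, and in whole liver fewer cells of a type and less RNA per cell cannot be told apart.

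*Moxd1* (ENSMUSG00000020000, chromosome 10, 24223517 to 24302790, plus strand) encodes a member of the copper-dependent monooxygenase family, related to dopamine beta-hydroxylase. Its level was 125.9, 63.5, 39.6, 159.8 and 38.6 CPM in vehicle libraries 1 to 5. In AAV-GFP libraries it had 0 counts in 6 libraries and 1 count (0.325 CPM) in library 6. In AAV-miR-34b/c libraries it was 6.78, 5.13, 5.92, 4.38, 16.6, 11.5 and 14.8 CPM, from 11 to 55 counts a library.
All 7 AAV-miR-34b/c libraries lay above all AAV-GFP libraries and below all vehicle libraries. Because the AAV-GFP libraries were at the floor of 3 counts a library, the vehicle mean was at least 93.2-fold higher and the AAV-miR-34b/c mean at least 10.1-fold higher than in AAV-GFP. With miR-34b/c, the mean of *Moxd1* was 10.9% of the vehicle mean.

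*Susd4* (ENSMUSG00000038576, chromosome 1, 182763860 to 182896591, plus strand) encodes a membrane protein with sushi domains that restrains complement activation. Its vehicle libraries were close together, at 27.5, 35.2, 33.3, 33.2 and 35.8 CPM. In AAV-GFP libraries it ranged from 0 to 3.14 CPM (median 1.29), and in AAV-miR-34b/c libraries from 1.19 to 10.2 CPM (median 2.82).
Every library of both TAA groups lay below the vehicle range. With miR-34b/c, libraries 5, 7 and 6 (10.2, 7.57 and 3.98 CPM) were above all AAV-GFP libraries and the other 4 were within their range. The mean was 3.51% of vehicle in AAV-GFP and 13.2% in AAV-miR-34b/c, a ratio of 3.77 between the TAA groups. The AAV-GFP mean (1.16 CPM, from 0 to 8 counts a library) lay near the floor of 0.917 CPM, so this ratio is uncertain. Without library 5 the AAV-miR-34b/c mean was 10.3% of vehicle.

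*Nxpe2* (ENSMUSG00000032028, chromosome 9, 48318006 to 48353454, minus strand) encodes a member of the neurexophilin and PC-esterase domain family. It was at 31.6, 21.7, 24.5, 29.1 and 27.8 CPM in vehicle libraries. In AAV-GFP libraries it was 0 to 3.58 CPM (median 0.646), with library 6 the highest at 11 counts and the others at 0 to 3 counts, and in AAV-miR-34b/c libraries 1.18 to 3.05 CPM (median 2.07).
The TAA groups overlapped, and all 14 of their libraries lay below the vehicle range. The mean was 3.63% of vehicle with AAV-GFP and 7.87% with AAV-miR-34b/c. The other 6 AAV-GFP libraries were at or under the floor of 3 counts, and without library 6 the AAV-GFP mean was 2.02% of vehicle. *Nxpe4*, on the opposite strand, overlaps *Nxpe2* and had 26 counts over all 19 libraries.

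*Serpine2* (ENSMUSG00000026249, chromosome 1, 79794197 to 79861180, minus strand) encodes protease nexin-1, a serpin that inhibits thrombin and plasminogen activators. Its level was 25.7, 36.2, 61.4, 20.5 and 50.3 CPM in vehicle libraries, with libraries 3 and 5, a close pair, the highest. It was 2.41 to 8.40 CPM in AAV-GFP (median 4.67) and 0.678 to 3.79 CPM in AAV-miR-34b/c libraries (median 2.72).
In this gene the AAV-miR-34b/c libraries were the lower ones, with 3 of 7 below all AAV-GFP libraries. The mean fell from 13.7% of vehicle in AAV-GFP to 5.93% in AAV-miR-34b/c livers.

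*Fitm1* (ENSMUSG00000022215, chromosome 14, 55575617 to 55576954, plus strand) encodes an endoplasmic reticulum protein that takes part in lipid droplet formation. It was at 20.6, 29.3, 31.1, 18.1 and 18.1 CPM in vehicle libraries, 3.75 to 9.76 CPM in AAV-GFP libraries (median 6.14) and 1.18 to 5.17 CPM in AAV-miR-34b/c libraries (median 2.93). Of the AAV-miR-34b/c libraries, 5 lay below all AAV-GFP libraries and the other 2 within their range. The mean was 26.7% of vehicle in AAV-GFP and 12.4% in AAV-miR-34b/c livers. An antisense gene without counts, *Gm15932*, overlaps its start.

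*Hsd3b5* (ENSMUSG00000038092, chromosome 3, 98618634 to 98630252, minus strand) encodes a steroid-metabolizing enzyme of the hydroxy-delta-5-steroid dehydrogenase family found in male liver. It was the highest of the 6 genes that were lower after TAA, at 219.3, 150.4, 192.5, 240.2 and 197.9 CPM in vehicle libraries. It ranged from 5.54 to 89.8 CPM in AAV-GFP (median 25.4) and from 6.10 to 82.5 CPM in AAV-miR-34b/c libraries (median 15.5).
Both TAA groups were spread widely, with the highest library 16.2-fold above the lowest in AAV-GFP and 13.5-fold in AAV-miR-34b/c, against 1.60-fold in vehicle. All 7 AAV-miR-34b/c libraries fell within the AAV-GFP range. The mean was 21.0% of vehicle in AAV-GFP and 17.4% in AAV-miR-34b/c. Genes of this family are similar in sequence, so reads could be lost or split between copies.

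*Elovl3* (ENSMUSG00000038754, chromosome 19, 46131897 to 46135694, plus strand) encodes an elongase of very long chain fatty acids. Its level was 102.9, 53.0, 170.7, 98.2 and 158.9 CPM in vehicle, 104.8 to 437 CPM in AAV-GFP (median 201.6) and 96.3 to 490.9 CPM in AAV-miR-34b/c libraries (median 117.4).
It was not lost after TAA, since 4 of 7 AAV-GFP libraries were above all vehicle libraries and the other 3 within their range. With miR-34b/c, 6 of 7 libraries lay within the vehicle range, and library 6 was far above it. The group means, with vehicle first and miR-34b/c last, were 116.8 ± 48.2 CPM (SD, n = 5), 232.0 ± 136.6 CPM (SD, n = 7) and 172.0 ± 141.5 CPM (SD, n = 7).

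**Figure D1:**
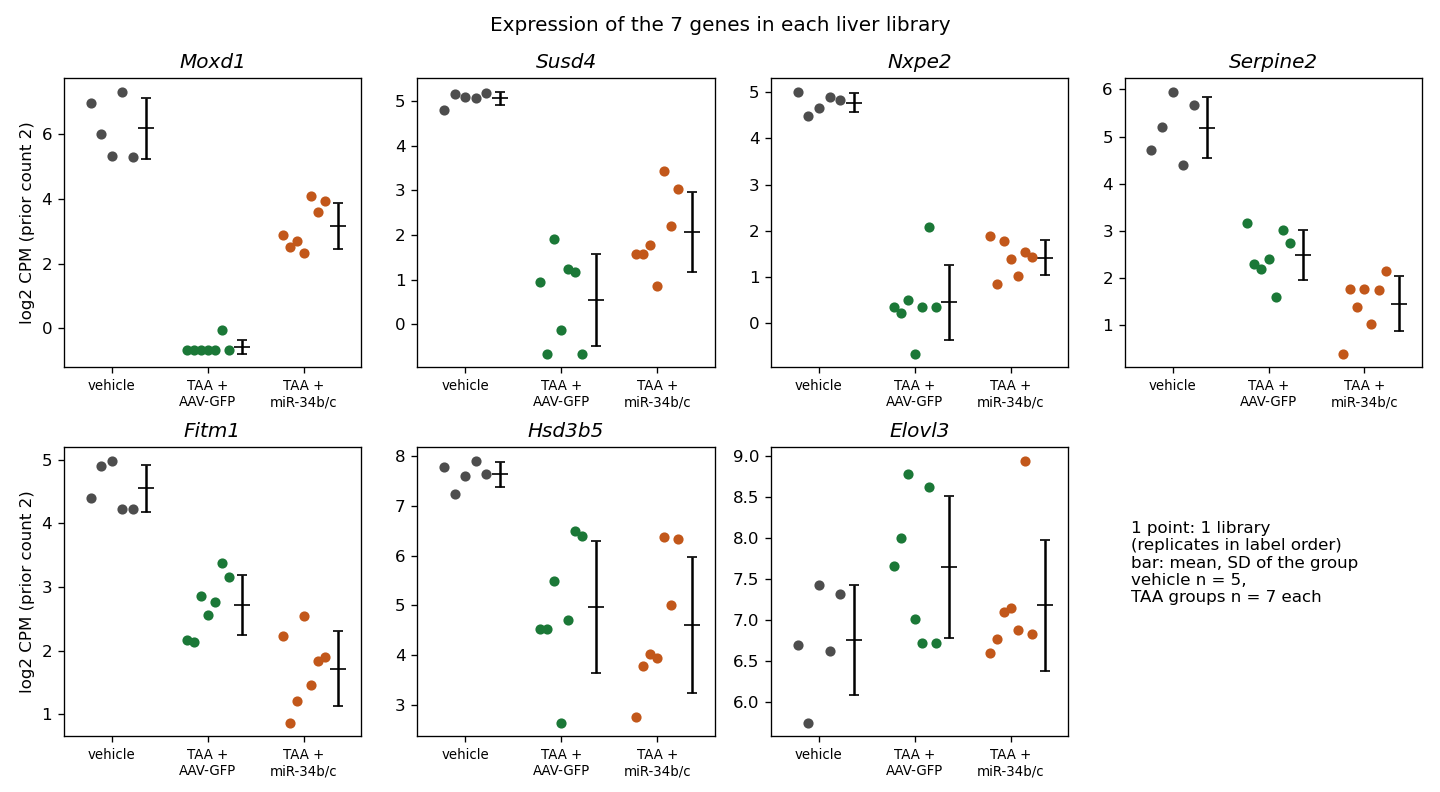
Level of the 7 genes in each library (vertical axis, log2 CPM with a prior count of 2; horizontal axis, group), with 1 point a library and bars for the mean and SD of vehicle (n = 5), AAV-GFP (n = 7) and AAV-miR-34b/c (n = 7). In *Moxd1* the AAV-miR-34b/c points lie between the other groups, in *Serpine2* and *Fitm1* they lie at the bottom, and in *Elovl3* the TAA groups are not below vehicle.

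The fitted log2 fold changes against vehicle, which describe the values that selected the genes, were -4.78 (SE 0.40) for *Nxpe2* (-5.55 without library 6), -4.84 (SE 0.42) for *Susd4*, -2.86 (SE 0.31) for *Serpine2*, -1.90 (SE 0.26) for *Fitm1* and -2.27 (SE 0.41) for *Hsd3b5* in AAV-GFP livers, and 0.99 (SE 0.36) for *Elovl3*. For *Moxd1* the bound above takes the place of a fitted value. In AAV-miR-34b/c livers they were -3.19 (SE 0.40) for *Moxd1*, -3.62 (SE 0.24) for *Nxpe2*, -2.90 (SE 0.35) for *Susd4*, -4.04 (SE 0.33) for *Serpine2*, -3.00 (SE 0.30) for *Fitm1*, -2.52 (SE 0.48) for *Hsd3b5* and 0.56 (SE 0.38) for *Elovl3*.
Both sets of values use the same vehicle libraries. Without library 6, all AAV-GFP libraries of *Nxpe2* were at or under the floor of 3 counts, so -5.55 goes beyond what these counts can measure. The 6 genes other than *Elovl3* had all AAV-GFP and all AAV-miR-34b/c libraries below all vehicle libraries, and over all genes tested 2.14% (of 9522) and 4.00% (of 9290) had libraries placed in this way. The selection used these contrasts, so nothing is read from that difference.

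**Figure D2:**
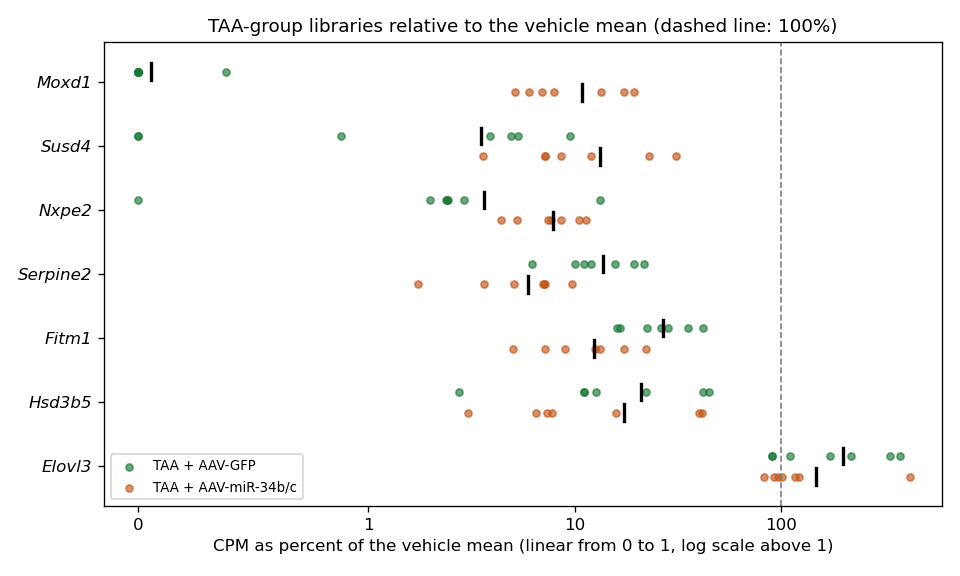
CPM of each AAV-GFP and AAV-miR-34b/c library as a percent of the vehicle mean (horizontal axis, linear from 0 to 1 and logarithmic above; dashed line at 100%), with 1 row a gene and black bars for group means. The AAV-miR-34b/c mean of *Susd4* is at 13.2% and that of *Moxd1* at 10.9%, to the right of AAV-GFP, while those of *Serpine2* (5.93%) and *Fitm1* (12.4%) are to the left.

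The comparison that bears on recovery is the one between the TAA groups. Only *Moxd1* passed the test across all genes, and it rose. *Susd4* and *Nxpe2* were also on the higher side with miR-34b/c, *Serpine2* and *Fitm1* on the lower side, and *Hsd3b5* was spread over the same range in both groups. *Elovl3* overlapped between the groups, at 104.8 to 437 CPM with AAV-GFP. With miR-34b/c its library 6 was at 490.9 CPM and the others at 96.3 to 141.7 CPM. No gene of the 6 that were low after TAA reached the vehicle range in any AAV-miR-34b/c library. The AAV-GFP libraries entered both this comparison and the selection, and *Moxd1* was already known from it, so these p-values are not independent of the choice of genes.

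In edgeR's quasi-likelihood test with Benjamini-Hochberg adjustment over 9252 genes, 1.95% of genes were called higher and 1.42% lower in AAV-miR-34b/c than in AAV-GFP livers at an adjusted p of 0.05. *Moxd1* was the 1 gene of the set called (adjusted p = 5.81e-06), and its adjusted p stayed between 6.84e-13 and 0.000524 under 23 alternatives. All AAV-miR-34b/c libraries lay above all AAV-GFP libraries in 0.713% of genes tested and below them in 0.659%, and of the set only *Moxd1* was placed in this way.
*Fitm1* (log2 fold change -1.11, SE 0.33, adjusted p = 0.0699) and *Serpine2* (-1.20, SE 0.35, adjusted p = 0.0707) missed the threshold in edgeR's test, with adjusted p from 0.0218 to 0.155 and from 0.0289 to 0.220 under the alternatives. *Hsd3b5* (-0.26, SE 0.57, adjusted p = 0.888) and *Elovl3* (-0.44, SE 0.39, adjusted p = 0.666) did not pass either in edgeR's test. Without AAV-miR-34b/c library 6, the value of *Elovl3* was -0.96.

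*Susd4* and *Nxpe2* had too few counts in the TAA groups to pass edgeR's filter in this comparison. With no filter, the edgeR log2 fold change was 1.93 (SE 0.61, adjusted p = 0.111) for *Susd4* and 1.13 (SE 0.58, adjusted p = 0.400) for *Nxpe2*. DESeq2 gave 1.95 (SE 0.64, adjusted p = 0.0486) for *Susd4* and 1.15 (SE 0.59, adjusted p = 0.345) for *Nxpe2*. In a fit of all 3 groups both genes pass the filter only through the vehicle libraries that selected them, so that fit is not used for them. Of the fits of the 2 TAA groups given here, *Susd4* thus passed the threshold with DESeq2 and not with edgeR without a filter.

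**Figure D3:**
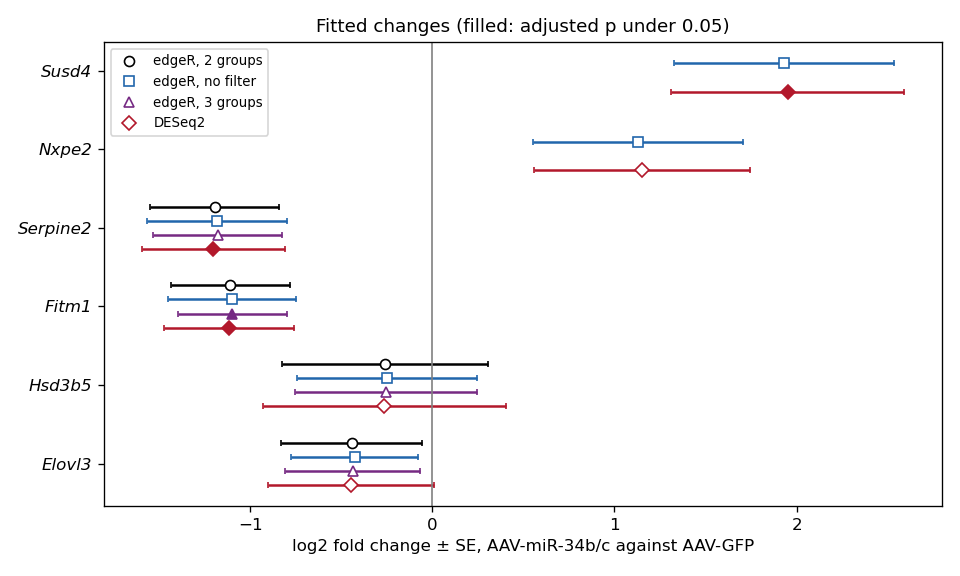
Log2 fold changes of AAV-miR-34b/c against AAV-GFP (horizontal axis, bars ± SE) for the 6 genes other than *Moxd1* in up to 4 fits, with filled symbols where the adjusted p was under 0.05. *Susd4* and *Nxpe2* are to the right of 0 and *Serpine2* and *Fitm1* to the left in every fit shown, and filled symbols occur for *Susd4* and *Serpine2* with DESeq2 only and for *Fitm1* with DESeq2 and the 3-group fit. The 3-group fit is not drawn for *Susd4* and *Nxpe2*.

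For single genes, all splits of the 14 TAA mice into groups of 7 were enumerated on log2 CPM (two-sided exact permutation test, smallest possible p = 0.000583, 7 genes tested). The mean difference was 3.74 for *Moxd1* (exact p = 0.000583), 1.53 for *Susd4* (exact p = 0.0134), 0.96 for *Nxpe2* (exact p = 0.0181), -1.03 for *Serpine2* (exact p = 0.00583) and -0.999 for *Fitm1* (exact p = 0.00583). For *Hsd3b5* it was -0.37 (exact p = 0.607) and for *Elovl3* -0.46 (exact p = 0.319). These values rest on this choice of genes and carry no adjustment for it.
With close pairs summed (4 against 6 samples, smallest possible p = 0.00952), the exact permutation p was 0.00952 for *Moxd1* and *Fitm1*, 0.0286 for *Serpine2*, and 0.0476 for *Susd4* and *Nxpe2*.

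Among AAV-miR-34b/c livers, *Moxd1*, *Susd4* and *Hsd3b5* were high in the same mice. Libraries 5, 6 and 7 were the 3 highest for each of these genes: 16.6, 11.5 and 14.8 CPM of *Moxd1* against 4.38 to 6.78 in libraries 1 to 4, 10.2, 3.98 and 7.57 CPM of *Susd4* against 1.19 to 2.82, and 82.5, 31.6 and 79.9 CPM of *Hsd3b5* against 6.10 to 15.5. The 15 other male-biased liver genes as a sum were also highest there, at 28265, 21470 and 29295 CPM in libraries 5, 6 and 7 and 13655 to 15269 CPM in libraries 1 to 4. In vehicle libraries this sum was 19836 to 23043 CPM. Libraries 5 and 7 thus lay above the vehicle range of the sum and library 6 within it. *Moxd1*, *Susd4* and *Hsd3b5* were below their vehicle ranges in these same libraries.
Libraries 5 and 7 are a close pair, the 7 libraries hold 3 such pairs and the values fall into separate clusters, so no correlation between genes within this group is given. *Nxpe2*, *Serpine2* and *Fitm1* did not have their highest values in these 3 libraries as a group: library 1 was highest for *Nxpe2* (3.05 CPM), library 7 for *Serpine2* (3.79 CPM) and library 4 for *Fitm1* (5.17 CPM). In vehicle livers, *Moxd1* was highest in libraries 4 and 1 and *Serpine2* in libraries 3 and 5, which are again close pairs. In AAV-GFP livers, the male-biased sum was highest in libraries 6 and 7 (24485 and 24755 CPM, above the vehicle range, against 12483 to 17583 CPM in the others). *Hsd3b5* was highest there too (89.8 and 83.9 CPM), whereas *Moxd1* had 1 and 0 counts and *Susd4* 5 and 0 counts.

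**Figure D4:**
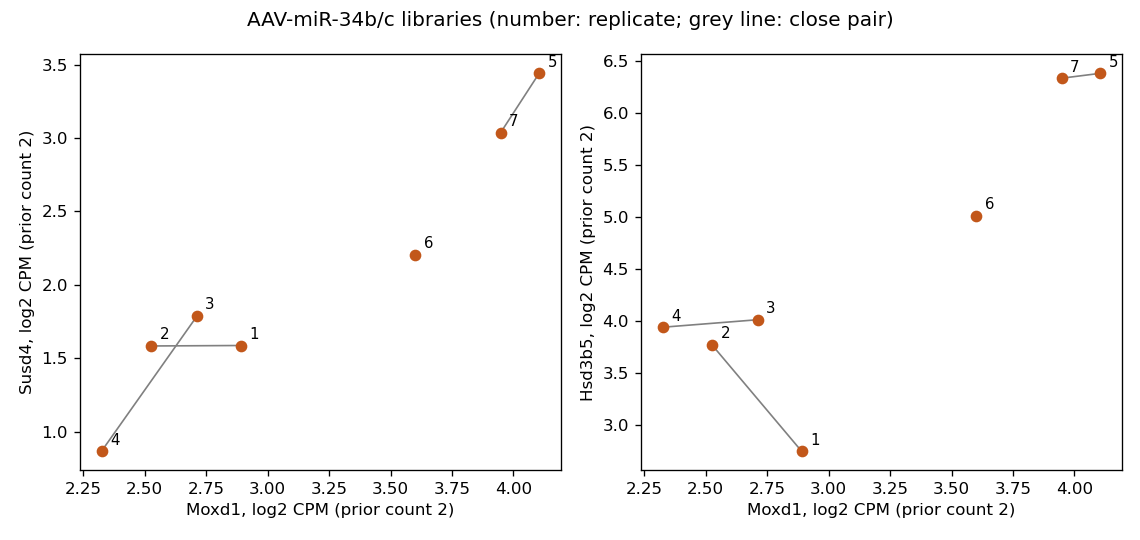
*Susd4* (left) and *Hsd3b5* (right) against *Moxd1* in the 7 AAV-miR-34b/c libraries (all axes log2 CPM, prior count 2), with replicate numbers beside the points and grey lines joining close pairs. Libraries 5, 6 and 7 lie at the top right in both panels.

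Over the 19 libraries, the 3 most similar profiles were listed for each gene by Pearson's r of log2 CPM among 9927 genes, as a description to which the group differences contribute. The vehicle and AAV-GFP values among them selected the genes, so likeness between members was in part set by the selection and nothing is read from it. *Susd4* and *Nxpe2* pass the filter for these 9927 genes only through the vehicle libraries. *Moxd1* and *Susd4* were each other's nearest gene, and *Nxpe2* was among the nearest 3 of both (r = 0.902 for *Moxd1* with *Susd4*, 0.875 for *Moxd1* with *Nxpe2*, 0.895 for *Susd4* with *Nxpe2*). *Susd4* was in turn among the nearest 3 of *Nxpe2*. The remaining places of these genes went to genes of major urinary proteins, the male-biased pheromone carriers secreted by liver: *Mup17* for *Moxd1* (0.861), *Mup16* for *Susd4* (0.898), and *Mup16* (0.933) and *Mup18* (0.914) for *Nxpe2*. *Mup* genes are near-identical copies, so their single counts are uncertain.
*Hsd3b5* was closest to *Gm31583* (0.935), *Slco1a1* (0.925), a male-biased organic anion transporter, and *Selenbp2* (0.917). *Fitm1* was closest to *Usp32* (0.882), *Serpine2* (0.878) and *Ugt2a3* (0.874), and *Serpine2* to *Gm35696* (0.894), *Hsf2* (0.888) and *Setd4* (0.883). *Elovl3*, which did not have the selected pattern, had r from -0.42 to -0.10 with the other 6 genes. Its nearest genes were *Hspb1* (0.797), *Mapre3* (0.773) and *Sco2* (0.765).

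Other genes of the same pathways were counted in each comparison, against 7.54% of all genes called higher and 5.19% lower in AAV-GFP than in vehicle livers, and 12.2% higher and 9.75% lower in AAV-miR-34b/c than in vehicle livers. Of 15 male-biased liver genes tested besides *Hsd3b5* and *Elovl3*, 7 fell and 2 rose in AAV-GFP livers, 7 fell and 0 rose in AAV-miR-34b/c livers against vehicle, and 1 fell and 0 rose between the TAA groups. *Mup1* fell by 2.27 on the log2 scale in AAV-GFP against vehicle (SE 0.47, edgeR adjusted p = 0.00442). *Mup20*, which encodes the pheromone darcin, was the gene lower with miR-34b/c than with AAV-GFP (-1.49, SE 0.30, edgeR adjusted p = 0.00832).
The median log2 fold change of the male-biased list was -0.29 in AAV-GFP and -0.42 in AAV-miR-34b/c against vehicle and -0.09 between the TAA groups, where the median of all genes was -0.01, 0.02 and -0.01. Of 4 female-biased genes tested between the TAA groups, *Cyp17a1*, a steroid 17-hydroxylase, rose with miR-34b/c (3.04, SE 0.56, edgeR adjusted p = 0.00415), after a fall in AAV-GFP against vehicle (-1.89, SE 0.48, edgeR adjusted p = 0.0146). Of 10 genes of growth hormone and STAT5 signaling, 0 were called between the TAA groups, 1 rose in AAV-GFP against vehicle (*Onecut1*) and 1 fell in AAV-miR-34b/c against vehicle (*Ghr*, the growth hormone receptor).

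For *Hsd3b5*, 2 relatives could be tested, and 0 were called in the 3 comparisons. *Hsd3b3* was at 218.4, 301.7 and 239.9 CPM in vehicle, AAV-GFP and miR-34b/c livers and *Hsd3b2* at 7.02, 11.6 and 8.16 CPM (group means), where *Hsd3b5* was at 200.1, 41.9 and 34.8 CPM. Of 11 other steroid-inactivating genes, 3 fell and 1 rose in AAV-GFP against vehicle, 5 fell and 1 rose in AAV-miR-34b/c against vehicle, and *Hsd17b6* alone was called between the TAA groups, lower with miR-34b/c (-1.84, SE 0.31, edgeR adjusted p = 0.00204).
For *Elovl3*, 10 genes of fatty acid elongation were tested, 2 rose and 0 fell in AAV-GFP against vehicle (*Elovl1* and *Tecr*), 3 rose and 0 fell in AAV-miR-34b/c against vehicle, and *Elovl6*, which elongates palmitate, rose between the TAA groups (0.78, SE 0.16, edgeR adjusted p = 0.0106). For *Fitm1*, of 13 lipid droplet genes 3 rose in AAV-GFP against vehicle (*Cideb*, *G0s2* and *Bscl2*), 2 rose in AAV-miR-34b/c against vehicle and 0 were called between the TAA groups.

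For *Serpine2*, 8 genes of plasminogen and thrombin control were tested between the TAA groups. Of these, *F2* (prothrombin) rose with miR-34b/c (0.60, SE 0.16, edgeR adjusted p = 0.0473) and 0 fell, and 3 of 8 genes rose in AAV-miR-34b/c against vehicle.
For *Susd4*, of 13 complement regulators 0 were called between the TAA groups and 2 fell and 1 rose in AAV-GFP against vehicle, with *C4bp*, which encodes a binding protein of complement component C4, among those that fell, at -0.60 (SE 0.18, edgeR adjusted p = 0.0348). In AAV-miR-34b/c against vehicle 4 of 12 rose and 0 fell. For *Moxd1*, *Pam* was the 1 relative that could be tested and was not called, and *Dbh* and *Moxd2* had 0 counts. Of the relatives of *Nxpe2*, 0 had enough counts to be tested.

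Clock genes and markers of liver cells were counted in the same way, and their counts are to be read against the shares of all genes given above. Of 11 clock output genes tested, 4 fell (*Per3*, *Usp2*, *Nr1d2* and *Dbp*) and 1 rose (*Nr1d1*) in AAV-GFP against vehicle, 3 of 10 fell in AAV-miR-34b/c against vehicle, and 0 of 8 were called between the TAA groups. Of 4 genes of the opposite phase, 3 rose in each TAA group against vehicle (*Arntl*, *Clock* and *Nfil3*) and 0 were called between the TAA groups. Sampling times are not given, and the part of the clock in the levels of the 7 genes was not tested beyond a covariate. With it, the log2 fold change in AAV-miR-34b/c against vehicle went from 0.56 to -0.084 for *Elovl3* and from -2.52 to -1.71 for *Hsd3b5*. For *Susd4* it went from -2.90 to -2.14, for *Moxd1* from -3.19 to -2.79 and for *Serpine2* from -4.04 to -3.82. *Fitm1* hardly moved (-3.00 to -2.99), and *Nxpe2* went from -3.62 to -3.90. In AAV-GFP against vehicle, *Susd4* went from -4.84 to -4.78, *Hsd3b5* from -2.27 to -2.12 and *Fitm1* from -1.90 to -1.80. There *Serpine2* stayed at -2.86, *Nxpe2* went from -4.78 to -5.28 and *Elovl3* from 0.99 to 0.54. *Moxd1*, at the floor in AAV-GFP, is left out of that comparison. Between the TAA groups, *Elovl3* went from -0.44 to -0.69, *Fitm1* from -1.11 to -1.16, *Serpine2* from -1.20 to -1.17 and *Hsd3b5* from -0.26 to -0.20.
Of 9 hepatocyte markers listed, 0 were called between the TAA groups, 1 rose in AAV-GFP and 2 rose and 2 fell in AAV-miR-34b/c against vehicle, and their summed level was 67911 to 84755, 64787 to 73186 and 54702 to 86143 CPM in vehicle, AAV-GFP and miR-34b/c libraries. Hepatic stellate cell markers were called higher in AAV-GFP against vehicle in 4 of 9 and lower with miR-34b/c than with AAV-GFP in 2 of 8 (*Col1a1* and *Col3a1*), and 0 of 7 were called in AAV-miR-34b/c against vehicle (summed level 370 to 558, 421 to 531 and 273 to 488 CPM).
Macrophage markers fell in 4 of 10 in AAV-GFP and 1 of 10 in AAV-miR-34b/c against vehicle, and *Cd5l* and *C1qb* rose between the TAA groups (summed level 476 to 967, 413 to 673 and 593 to 869 CPM). Endothelial markers were called in 0 of 9 in AAV-GFP against vehicle, 1 of 9 in each direction in AAV-miR-34b/c against vehicle, and *Lyve1* rose between the TAA groups (239 to 286, 201 to 277 and 251 to 325 CPM). Cholangiocyte markers rose in 2 of 3 in AAV-GFP and 1 of 3 in AAV-miR-34b/c against vehicle, with 0 of 3 called between the TAA groups (25.3 to 47.2, 67.0 to 109 and 54.9 to 127 CPM). Their part in the levels of the 7 genes was not tested.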

How the data were processed

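Liver RNA of 19 mice was sequenced near the 3′ end of polyadenylated transcripts (QuantSeq, single reads of 100 bases). The authors deposited raw counts per gene, without normalization; the submitters' processing notes name STAR and mm10, and the strand setting, annotation and use of molecular identifiers are not given in the sources used here, so counts may include PCR duplicates and reads of overlapping genes. Groups came from the sample titles, whose records call the libraries biological replicates; if close pairs were not separate mice, p-values would be too small. Counts were fitted with edgeR 4.0.16 in R 4.3.3 (TMM, filterByExpr with minimum count 10, quasi-likelihood test, only the 2 groups compared, Benjamini-Hochberg over all genes tested, threshold 0.05). Log2 CPM used a prior count of 2, and permutation tests scipy 1.17.1. Scripts were tested on simulated counts. Positions and 3′ UTRs are from GENCODE M21 (GRCm38), promoters and microRNA from RefSeq, and symbols matched 30934 of 31053 genes.

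The members and gene lists were chosen with earlier results of these data known. The genes named are the 7 members, the 3 most similar genes of each, and the list genes called between the TAA groups or, at most 2 a list, between AAV-GFP and vehicle. Outside this rule, other called list genes (*Dbp*, *Nr1d2*, *Usp2*, *Arntl*, *Bscl2* and *Ghr*), overlapping genes and the relatives of *Hsd3b5*, *Moxd1* and *Nxpe2* were chosen after their values were seen. Some list genes are not reported here. Planned correlations among members within the AAV-miR-34b/c group are not reported, because the 7 libraries hold 3 close pairs and fall into clusters. Alternatives were no filter, DESeq2 size factors, library size only, DESeq2 1.42.0, limma-voom (limma 3.58.1), 1 fit of all 3 groups, a block for the replicate number, a clock score as covariate, close pairs summed, each library left out, and a prior count of 0.5.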

Additional observations from a re-analysis of the deposited data

Results flagged for a closer look

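Among the 21 combinations of gene and group, 4 held a library far from the others of its group by Dixon's test, where chance flags about 1 in 20 groups (1.05 of 21). *Elovl3* was at 8.94 log2 CPM in AAV-miR-34b/c library 6, with the next library at 7.15. AAV-GFP library 6 was the highest of its group both for *Nxpe2* (2.07 log2 CPM, next 0.50) and for *Moxd1* (-0.067 log2 CPM, next -0.67), the latter from 1 count against 0. *Susd4* was lowest in vehicle library 1, at 4.81 log2 CPM, with the next at 5.08.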

How the results depend on the processing

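*Moxd1* was the 1 gene of the set called between the TAA groups in edgeR's test, and the number called was 3 with library size only, 4 with DESeq2, 3 with all 3 groups in one fit (*Susd4* among them, which enters that fit only through the vehicle libraries) and 1 to 2 when each library was left out. Over all genes, edgeR's test called 311 of 9252, library size only 624 of 9252, DESeq2 574 of 12044 and the 3-group fit 437 of 9928. Limma-voom called 813 of 9252 and 1 gene of the set. The higher numbers came from fits that called more of all genes, so they are not read as a result about the set. *Fitm1* passed the threshold with library size only (log2 fold change -1.29), DESeq2 (-1.11) and all 3 groups (-1.10). *Serpine2* passed it with library size only (-1.38), DESeq2 (-1.20) and without AAV-GFP library 5 (-1.33; -1.36 to -1.04 over all libraries left out). *Hsd3b5* turned to 0.16 with limma-voom and to 0.041 without AAV-GFP library 6 (-0.64 to 0.041 over all libraries left out). Scaling by library size only moved the median of all genes between the TAA groups from -0.01 to -0.20 and gave 119 genes higher and 505 lower, against 180 and 131. The permutation tests kept their side of 0.05 in all 112 alternative results.

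Genes called between the TAA groups numbered 311, and 624 with library size only, 574 with DESeq2, 813 with limma-voom, 87 with close pairs summed and 209 to 344 with a library left out. In AAV-GFP against vehicle they numbered 1212, and 2687 with limma-voom, 231 with the clock score, 227 with close pairs summed and 689 to 1859 with a library left out (728 without vehicle library 1, 689 without vehicle library 4, 806 without AAV-GFP library 3, 1859 without AAV-GFP library 6). In AAV-miR-34b/c against vehicle they numbered 2037, and 3839 with limma-voom, 1063 with the clock score, 331 with close pairs summed and 1267 to 2695 with a library left out (1328 without vehicle library 1, 1267 without vehicle library 4). *Elovl3* in AAV-miR-34b/c against vehicle turned to -0.084 with the clock score. The causes were not tested. Settings with libraries summed or left out also had fewer samples, and this was not separated from which libraries remained.

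With a replicate block (the replicate number as a term), 142 genes were called between the TAA groups, 3136 in AAV-GFP and 945 in AAV-miR-34b/c against vehicle, and *Moxd1* remained the 1 gene of the set called between the TAA groups. Deviations of same-numbered libraries correlated at -0.28 to 0.21 between the TAA groups, -0.09 to 0.22 for AAV-GFP with vehicle and -0.23 to 0.28 for AAV-miR-34b/c with vehicle, so the numbers were not taken to pair the mice. Genes with a few counts a library, such as *Nxpe2* and *Susd4* after TAA, have wide counting error at this depth.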
